A study of Mus musculus with 6 samples.

Results

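A set of 50 genes of the T-cell surface and of T-cell receptor signalling was followed on polysomes of mouse leukaemia cells treated with 4EGI-1. The set was given by gene symbol. It holds surface genes (the receptor complex, its coreceptors, costimulatory and adhesion molecules, migration receptors), signalling genes (kinases, adaptors, effectors, negative regulators) and 3 genes of antigen receptor gene assembly. Of the 50 genes, 49 were measured, out of 19937 genes in all; Lck, the Src-family kinase bound to the coreceptors, has no probe set under its symbol in the annotation used here and is not analysed here. Of the 49 genes, 25 encode surface proteins, 21 signalling proteins and 3 the recombination proteins.

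The cells are #483, a clone of T-cell acute lymphoblastic leukaemia (T-ALL) with C57BL6 background. The treated group was exposed to 100 µM 4EGI-1 for 2 h and has 3 samples; the control group is titled untreated and also has 3 samples. The design text names DMSO as the alternative to 4EGI-1, so whether the controls received this solvent is not settled. 4EGI-1 is a compound that keeps eIF4E, which binds the mRNA cap, from joining its scaffold partner eIF4G. RNA was taken from pooled polysome fractions of a sucrose gradient and read on 1 array per sample. The design text calls the samples biological replicates, all of them from 1 clone.

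The T-cell receptor recognises antigen, and its signal enters the cell through the CD3 chains and CD3 zeta, whose tyrosines are phosphorylated by Lck and Fyn. Zap70 docks there and phosphorylates the adaptors Lat and SLP-76, which gather the phospholipase, exchange factor and protein kinase C branches that lead to NFAT, Ras and NF-kB. Immature thymocytes, from which T-ALL arises, assemble the receptor genes with the Rag recombinase and test the product through the same pathway.

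Signals are deposited log2 values, so a difference of 1 is a 2-fold change. A polysomal signal holds both how much of an mRNA the cells have and how much of it is on ribosomes, and these cannot be told apart here; nor can fewer cells of a type and less RNA per cell. A gene passed at a Benjamini-Hochberg adjusted p under 0.05 in limma over all 19937 genes. Median log2 signal per array was 6.38 to 6.43, and arrays correlated at 0.996 to 0.997 within groups and at 0.988 to 0.99 between them. The labelled cell type was checked against the T-cell markers Cd3d, Cd3e, Cd3g, Cd247, Thy1 and Cd5, with Lck unmeasured. Each lay above the median signal of all probe sets (6.40), with control means from 6.90 (Cd5) to 12.47 (Thy1). Of the 49 genes 46 lay above this median, all but Cd69, S1pr1 and Ccr9. Of the marker lists of other cell types, 3 of 9 B-cell, 2 of 10 myeloid, 2 of 8 NK-cell, 4 of 5 erythroid and 6 of 9 stromal and endothelial genes did, as did 11059 of all 19937 genes, so a signal above this median does not by itself show expression.

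Most T-lineage genes that changed were lower after 4EGI-1. Of the 49 genes, 15 fell (30.6%), 4 rose and 30 did not pass, with a median log2 difference (4EGI-1 minus control) of -0.14. Among all genes 22.9% passed, 11.5% lower and 11.5% higher, with a median of -0.03. This share mixes signal levels: 46 of the 49 genes reached the median signal of all probe sets, against 11059 of all 19937 genes. With only genes that reached it kept, 5143 of the 11059 passed, while 21 of the 46 T-lineage genes fell and 5 rose. The 5143 were not split by direction, so the share that fell was not compared at like signal. The median difference over all genes in that fit was -0.035. The higher share of T-lineage genes that passed was thus set partly against genes of lower signal. The same holds for the next 2 comparisons, which use all genes. At 1.5-fold or more, 6 of the 49 genes fell and 2 rose, where 1.57% of all genes fell and 3.72% rose by that much. In 27 of the 49 genes every 4EGI-1 array lay below every control array, against 20.8% of all genes, and in 9 every 4EGI-1 array lay above, against 17% of all genes. The count of genes that fell was 9 without 4EGI-1 replicate 2 and 8 without control replicate 1. In these fits 3892 and 3697 of all genes passed, against 4573 with all arrays. The T-lineage genes were chosen with earlier results of these data known, so the counts are descriptions.

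**Figure D1:**
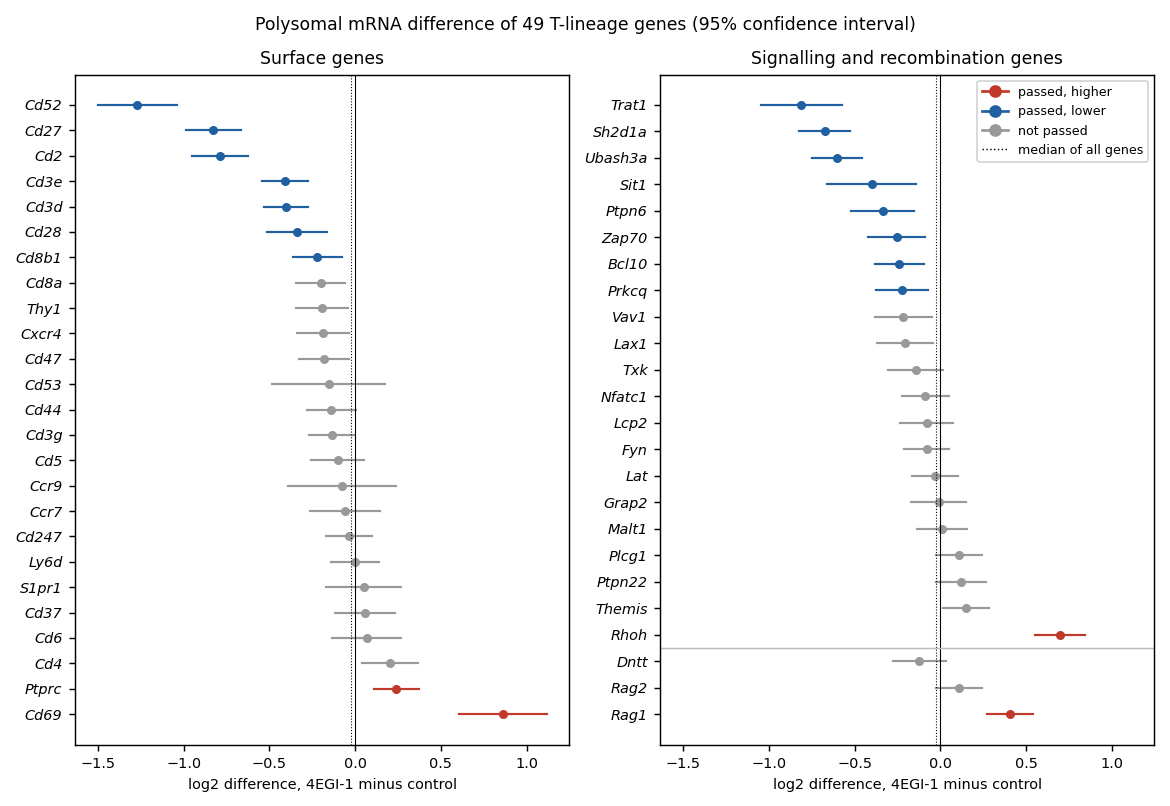
Log2 difference (4EGI-1 minus control, x axis) of each of the 49 measured genes, with bars for the 95% confidence interval from limma (3 arrays per group). Surface genes are on the left; signalling genes and, below the grey line, the 3 recombination genes are on the right. Cd52 lies furthest to the left at -1.27 and Cd69 furthest to the right at 0.86.

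Of 25 surface genes 7 fell (28%), 2 rose (8%) and 16 did not pass, with a median of -0.14. Of 21 signalling genes 8 fell (38.1%), 1 rose (4.76%) and 12 did not pass, also with a median of -0.14 (-0.145 at 3 decimals, against -0.140 for surface genes). Among all genes 11.5% fell and 11.5% rose. Signal levels differ here too: 22 of the 25 surface and all 21 signalling genes reached the median signal, against 11059 of all 19937 genes. The medians depended on the class boundary and on single arrays: with the transmembrane adaptors counted as surface genes they were -0.154 for surface and -0.089 for signalling genes, and without 4EGI-1 replicate 1 they were -0.17 and -0.11. Array by array, the median deviation of the surface genes from their control means was -0.11, -0.18 and -0.15 in 4EGI-1 replicates 1, 2 and 3, and that of the signalling genes -0.14, -0.16 and -0.09. In the control arrays both medians stayed within -0.01 and 0.03. The signalling count depended on single arrays: it was 3 genes lower without 4EGI-1 replicate 2 or control replicate 1, 4 without control replicate 2 or 3, and 5 without 4EGI-1 replicate 1 or 3. Over all genes the calls dropped as well in these fits, to 3546 to 3892, against 4573 with all arrays. No test of the contrast between the classes was made, since the classes were chosen.

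**Figure D2:**
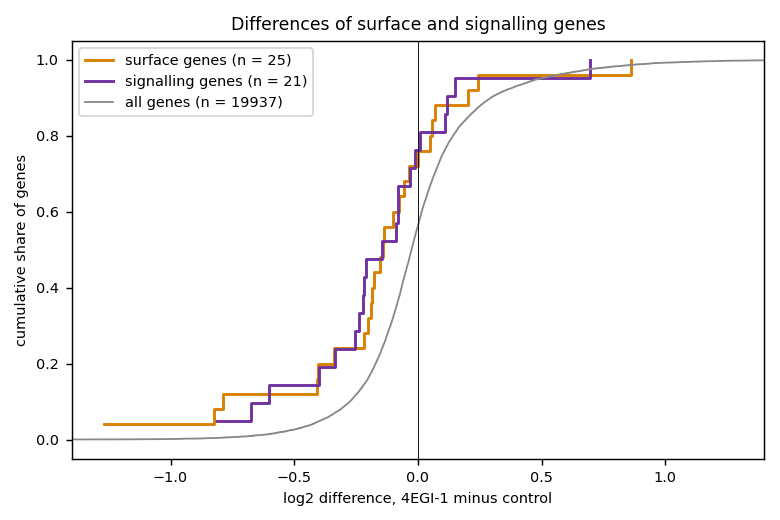
Cumulative share of genes (y axis) at or below a log2 difference (4EGI-1 minus control, x axis), for 25 surface genes, 21 signalling genes and all 19937 genes. Both coloured curves run left of the grey one over most of their length; their medians are -0.14 and -0.14, against -0.03 for all genes.

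The start regions of some of the genes with the clearest changes are shown next, because 4EGI-1 acts at the capped end of mRNAs. They are the windows from 60 bases before to 30 after the annotated RefSeq start (GRCm38.p6). Shown are genes that passed with a difference of at least 0.4 in size and are in the RefSeq promoter table. Cd52, Cd69, Cd2 and Sh2d1a also passed with such a difference but had no start region in that table as used here. Capitals mark the first 30 transcribed bases.
Cd27 (lower; chr6:125236998-125237087, minus strand): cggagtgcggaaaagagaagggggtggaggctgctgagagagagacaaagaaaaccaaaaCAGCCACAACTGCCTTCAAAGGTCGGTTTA
Trat1 (lower; chr16:48772033-48772122, minus strand): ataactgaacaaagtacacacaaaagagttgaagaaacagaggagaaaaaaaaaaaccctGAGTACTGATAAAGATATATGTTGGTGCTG
Ubash3a (lower; chr17:31208006-31208095, plus strand): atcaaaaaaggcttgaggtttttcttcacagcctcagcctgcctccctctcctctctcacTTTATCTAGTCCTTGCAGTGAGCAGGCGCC
Cd3e (lower; chr9:45009582-45009671, minus strand): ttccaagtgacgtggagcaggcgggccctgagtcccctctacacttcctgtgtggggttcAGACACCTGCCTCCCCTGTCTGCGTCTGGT
Cd3d (lower; chr9:44981726-44981815, plus strand): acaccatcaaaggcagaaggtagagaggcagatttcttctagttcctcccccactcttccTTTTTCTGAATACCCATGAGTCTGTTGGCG
Rag1 (higher; chr2:101649503-101649592, minus strand): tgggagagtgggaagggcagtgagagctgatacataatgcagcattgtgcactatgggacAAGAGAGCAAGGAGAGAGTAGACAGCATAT
Rhoh (higher; chr5:65863524-65863613, plus strand): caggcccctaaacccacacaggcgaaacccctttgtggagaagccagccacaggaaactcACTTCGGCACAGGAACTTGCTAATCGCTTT

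None of these starts has a C followed by 4 pyrimidines, the letters with which a terminal oligopyrimidine mRNA begins: the count was 0 of the 35 measured T-lineage genes in the table, against 2.2% of 15613 genes. In the whole window of 250 bases before to 50 after the start, searched on both strands, the E-box letters CANNTG were present in 29 of 35 T-lineage genes (82.9%) and in 68% of all genes, and the RUNX letters TGTGGT in 5 of 35 (14.3%) against 14.2%. The ETS letters CCGGAAG were present in 2 of 35 (5.71%, against 12.5%) and the letters TATAA in 6 of 35 (17.1%, against 20.9%). Where a gene has several annotated starts the one furthest upstream was taken, and a letter match is no evidence of a bound site.

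Among the genes of the receptor complex and its coreceptors, whose proteins work as one assembly, the test was passed by 3 of the 7 genes, all lower. Of all genes 11.5% fell and 11.5% rose. A role holds 3 to 14 genes, so the counts by role are given as a listing. Cd3e, which encodes the epsilon chain that pairs with both delta and gamma, had log2 signals of 11.79, 11.78 and 11.75 with 4EGI-1, against 12.13, 12.22 and 12.19 in controls. It fell by 0.41 ± 0.06 (SE; limma adjusted p = 0.00170), and the groups did not overlap. Cd3d, the delta chain gene, had 10.90, 10.89 and 10.92 with 4EGI-1, against 11.32, 11.33 and 11.28 in controls. The arrays of each group lay within 0.06 of each other here, and the gene fell by 0.40 ± 0.06 (limma adjusted p = 0.00145).

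Cd3g, the gamma chain gene, lies beside Cd3d and Cd3e in the genome. Its signals were 12.23, 12.20 and 12.20 with 4EGI-1, against 12.37, 12.36 and 12.32 in controls. The groups did not overlap, but the difference of -0.14 ± 0.06 (SE) did not pass (limma adjusted p = 0.132). In 1 alternative fit, limma with a trended robust prior, Cd3g did pass (adjusted p = 0.00547). Cd247, which encodes the zeta chain with its paired signalling tyrosines, had overlapping groups and a difference of -0.04 (95% interval -0.17 to 0.10). On each array the signal of Cd3e was set against that of Cd3g: the log2 ratio was -0.44, -0.42 and -0.45 with 4EGI-1, against -0.24, -0.13 and -0.13 in controls. The log2 ratio of Cd3d to Cd3g also dropped, by 0.27, to a mean of -1.31 with 4EGI-1 against -1.04 in controls. In both pairs the groups did not overlap, with an exact two-sided permutation p of 0.1, the smallest that 3 arrays against 3 allow (0.125 adjusted over the 5 pairs compared). This design cannot reach the threshold and the pairs were chosen after the values were seen, so the ratios are given as a description.

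Of the coreceptor genes only Cd8b1 passed. Cd8b1, the beta chain gene of CD8, had signals of 10.19, 10.22 and 10.21 with 4EGI-1, against 10.40, 10.38 and 10.50 in controls, and fell by 0.22 ± 0.06 (SE; limma adjusted p = 0.0336). This call was lost whenever any 1 array was left out (adjusted p = 0.0560 to 0.121 over the 6 fits). Cd8a, its partner chain gene, had 11.87, 11.88 and 11.78 with 4EGI-1, against 12.09, 12.04 and 12.00 in controls; its difference of -0.20 lay just outside the threshold (limma adjusted p = 0.0514). The log2 ratio of Cd8b1 to Cd8a overlapped between the groups (difference -0.02, exact permutation p = 0.9). Cd4, the coreceptor gene for class II recognition, had signals of 9.14, 9.04 and 9.19 with 4EGI-1, against 8.94, 8.83 and 8.99 in controls. It lay above its controls in all 3 arrays but did not pass, at 0.20 ± 0.07 (limma adjusted p = 0.0797). The log2 ratio of Cd4 to Cd8a was 0.40 higher with 4EGI-1, at a mean of -2.72 against -3.12 in controls, with no overlap (exact permutation p = 0.1, adjusted 0.125).

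Costimulatory, adhesion and other surface antigens held the largest changes of the set in both directions: 4 of the 14 genes fell, 2 rose and 8 were not past the test. The share that rose, 14.3%, was near the 11.5% of all genes, and 28.6% fell, against 11.5% of all genes. Cd52 encodes a very short glycopeptide that is anchored in the lymphocyte membrane by a lipid. Its signals were 6.62, 6.55 and 6.29 with 4EGI-1, against 7.66, 7.72 and 7.88 in controls. The lowest control array was above the highest treated one by about 1 on the log2 scale. Cd52 fell by 1.27 ± 0.10 (SE), to 0.415 times its control signal (limma adjusted p = 0.000120), and its treated signals were close to the median of the table.

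Cd27 encodes a costimulatory receptor of the tumour necrosis factor receptor family. It had 9.40, 9.22 and 9.27 with 4EGI-1, against 10.17, 10.12 and 10.07 in controls, and fell to 0.564 times its control signal (limma adjusted p = 0.000147). Its annotated span overlaps the non-coding genes E130112N10Rik and Mir8113. Whether the probe set of Cd27 also reads their transcripts was not checked. Cd2, an adhesion receptor that binds CD48 in the mouse, had 7.88, 7.84 and 7.80 with 4EGI-1, against 8.65, 8.51 and 8.72 in controls. It fell by 0.79 ± 0.07 (SE; limma adjusted p = 0.000204), and the treated arrays lay within 0.08 of each other. Cd28, the main costimulatory receptor gene of T cells, had 8.89, 8.71 and 8.66 with 4EGI-1, against 9.15, 9.06 and 9.06 in controls. It fell by 0.34 ± 0.08 (limma adjusted p = 0.0135; 0.0526 without control replicate 1).

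The surface genes that rose were Cd69 and Ptprc. Cd69 encodes an early activation antigen that binds and removes the egress receptor S1PR1. Its signals were 6.41, 6.17 and 6.65 with 4EGI-1, against 5.55, 5.55 and 5.55 in controls. The control arrays agreed to an SD of 0.003 at a signal below the median of the table, while the treated arrays had an SD of 0.24. It was higher by 0.86 ± 0.11 (SE), or 1.81-fold, with 4EGI-1 (limma adjusted p = 0.000989). Ptprc, which encodes the phosphatase CD45 that keeps Src-family kinases ready, had 12.32, 12.29 and 12.26 with 4EGI-1, against 12.08, 12.02 and 12.04 in controls. It rose by 0.24 ± 0.06 (limma adjusted p = 0.0181), a call lost without 4EGI-1 replicate 1 (0.0577), control replicate 2 (0.0615) or control replicate 3 (0.0622).

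**Figure D3:**
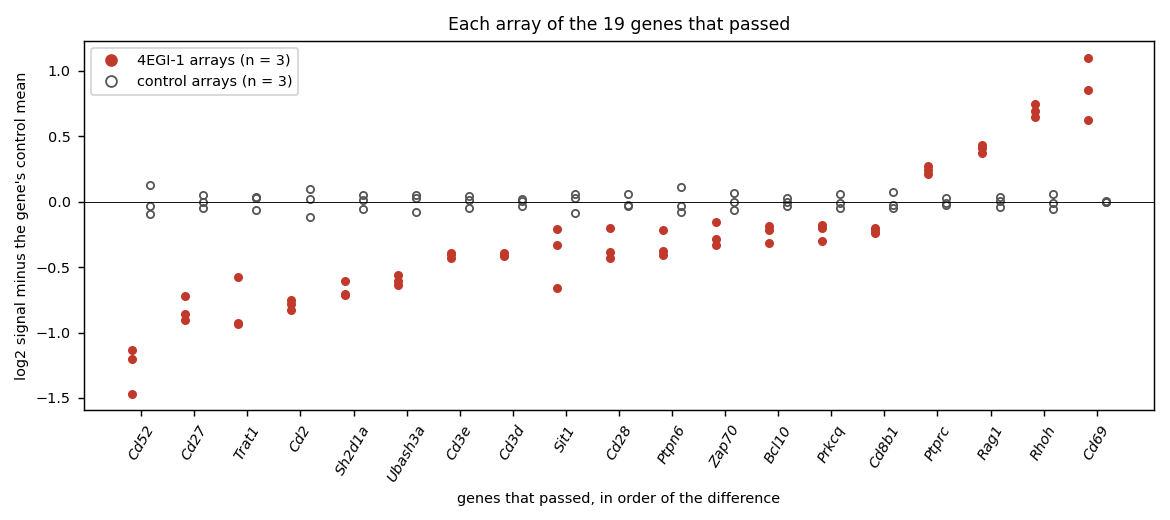
Log2 signal of each array minus the gene's own control mean (y axis), for the 19 genes that passed, in order of the difference; filled red points are the 3 4EGI-1 arrays and open points the 3 control arrays. The red points of all 19 genes lie outside the range of their open points, from Cd52 at the left to Cd69 at the right.

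The other antigens did not pass, though Thy1 and Cd47 did in some alternative fits given below. Thy1, the thymocyte antigen gene, had 12.27, 12.20 and 12.36 with 4EGI-1, against 12.44, 12.52 and 12.45 in controls, a difference of -0.19 that did not pass (limma adjusted p = 0.0742). Cd47, the ligand gene of the macrophage receptor SIRPA, was the only measured member with more than 1 probe set, and both gave about the same value: -0.18 and -0.17 (adjusted p = 0.124 and 0.108 over all probe sets). The hyaluronan receptor gene Cd44 differed by -0.14 and Cd5, a damper of receptor signals, by -0.10. The related Cd6 was at 0.07, the tetraspanin genes Cd53 and Cd37 at -0.15 and 0.06, and Ly6d, which encodes a lipid-anchored antigen, at 0.00 (95% interval -0.14 to 0.14). Cd53 had the widest interval of the set, -0.49 to 0.18, and a fall of the size seen for Cd3e lies inside it.

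None of the 4 migration receptor genes passed in limma, against 22.9% of all genes, a count too small to set them apart. An unadjusted p under 0.05 was seen in 1 of the 4 genes, against 6604 of all 19937 genes. Cxcr4, the receptor gene for the marrow chemokine CXCL12, was that gene: its signals were 10.68, 10.66 and 10.82 with 4EGI-1, against 10.89, 10.93 and 10.90 in controls (difference -0.19, limma adjusted p = 0.0817). Ccr7, which guides cells to lymph nodes, differed by -0.06, and the egress receptor gene S1pr1 by 0.05. Ccr9, the receptor for the thymic and gut chemokine CCL25, had 5.76, 5.25 and 5.21 with 4EGI-1, against 5.48, 5.51 and 5.46 in controls. Its replicate 1 stood apart from the other 4EGI-1 arrays; with all arrays the difference was -0.08 (adjusted p = 0.755), and without 4EGI-1 replicate 1 it was -0.25 (adjusted p = 0.0390).

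**Figure D4:**
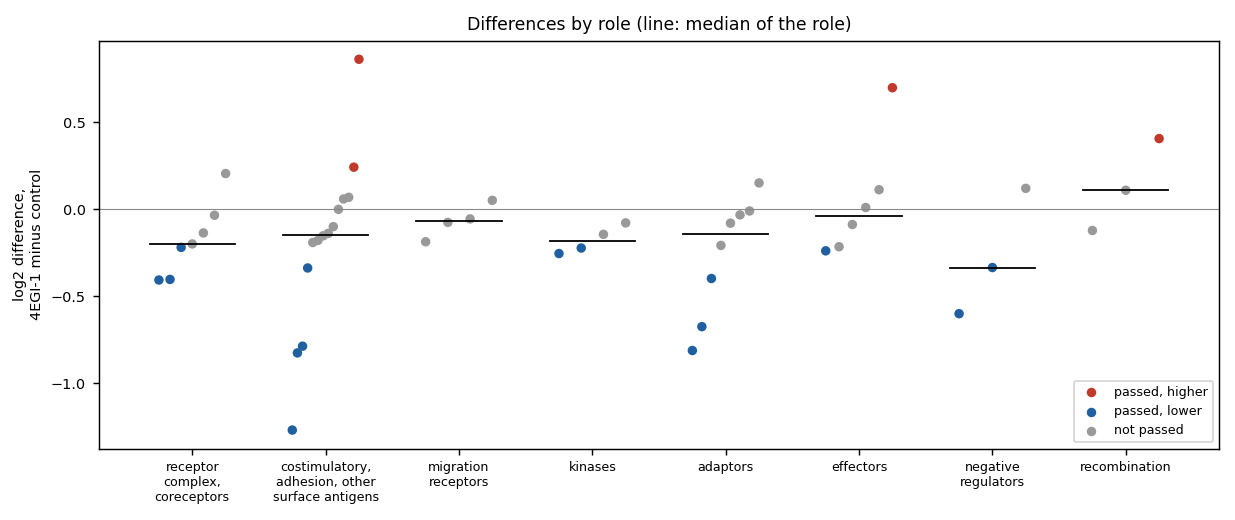
Log2 difference (4EGI-1 minus control, y axis) of each measured gene, grouped by role; black lines are medians of a role. The median is -0.20 for the receptor complex and coreceptors, -0.07 for migration receptors, -0.18 for kinases, -0.145 for adaptors, -0.34 for the 3 negative regulators and 0.11 for the 3 recombination genes.

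Among the kinases, 2 of 4 measured fell, both by little, where 11.5% of all genes fell. Zap70, which binds the phosphorylated CD3 and zeta tyrosines, had 8.06, 7.89 and 7.94 with 4EGI-1, against 8.29, 8.22 and 8.15 in controls (difference -0.26 ± 0.07, SE; limma adjusted p = 0.0347). Prkcq, the protein kinase C theta gene, had 10.86, 10.73 and 10.83 with 4EGI-1, against 11.09, 10.99 and 11.02 in controls (difference -0.224 ± 0.065; limma adjusted p = 0.0401). Neither call was firm. Prkcq lost it when any 1 array was left out (adjusted p = 0.0589 to 0.119), and Zap70 without each array except 4EGI-1 replicate 1 (0.0520 to 0.111). The span of Zap70 overlaps the pseudogene Gm18828. The Src-family kinase gene Fyn was at -0.08 (95% interval -0.21 to 0.05) and the Tec-family kinase gene Txk at -0.14, and neither passed.

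Of the 8 adaptor genes 3 fell and 5 did not pass, where 11.5% of all genes fell. Trat1 encodes a transmembrane adaptor that associates with the receptor complex. It had 8.54, 8.18 and 8.19 with 4EGI-1, against 9.05, 9.15 and 9.14 in controls, and fell to 0.570 times its control signal (limma adjusted p = 0.000878). Replicate 1 was the highest treated array and still lay below every control. The span of Trat1 overlaps the pseudogene Gm8670. Sh2d1a encodes SAP, which couples SLAM-family receptors to Fyn. Its signals were 10.63, 10.53 and 10.52 with 4EGI-1, against 11.29, 11.25 and 11.18 in controls, a fall of 0.675 ± 0.065 (SE; limma adjusted p = 0.000253). Sit1, a transmembrane adaptor that recruits inhibitory partners, had 7.46, 7.01 and 7.34 with 4EGI-1, against 7.69, 7.58 and 7.73 in controls. It fell by 0.40 ± 0.11 (limma adjusted p = 0.0357), but when 1 array was left out the call held for 4EGI-1 replicate 1 and was lost for each other array (0.0553 to 0.107).

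The genes of the scaffold at the centre of the pathway did not pass. Lat, the membrane scaffold gene, had 11.50, 11.51 and 11.49 with 4EGI-1, against 11.49, 11.54 and 11.57 in controls, and a difference of -0.03 (95% interval -0.17 to 0.10). Lcp2, which encodes SLP-76, was at -0.08 (interval -0.24 to 0.08), and Grap2, which links it to LAT, at -0.01 (interval -0.17 to 0.15). Each of these intervals leaves out a fall of the size of Cd3e. Themis, needed for thymocyte selection, lay above its controls in all 3 treated arrays (11.96, 11.88 and 11.95 with 4EGI-1, against 11.78, 11.78 and 11.77 in controls) without passing (0.15, limma adjusted p = 0.108). Lax1, an inhibitory transmembrane adaptor gene, was at -0.21 (adjusted p = 0.0721).

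Downstream effectors gave 1 fall and 1 rise among 6 genes, near the 11.5% of all genes in each direction. Rhoh encodes an atypical small G protein that does not hydrolyse GTP and helps bring ZAP70 to the receptor. Its signals were 12.05, 11.95 and 12.00 with 4EGI-1, against 11.30, 11.25 and 11.36 in controls. It rose by 0.70 ± 0.06 (SE), or 1.62-fold, with groups far apart for their spread (limma adjusted p = 0.000200). Bcl10, part of the complex that passes the signal to NF-kB, had 8.30, 8.21 and 8.34 with 4EGI-1, against 8.52, 8.55 and 8.49 in controls. It fell by 0.24 ± 0.06 (limma adjusted p = 0.0254), and lost the call without each array except 4EGI-1 replicate 3 (0.0546 to 0.0813). Malt1, the protease gene of the same complex, was at 0.01 (interval -0.13 to 0.15). The exchange factor gene Vav1 was at -0.22 (adjusted p = 0.0669), the phospholipase gene Plcg1 at 0.11 and the transcription factor gene Nfatc1 at -0.09, none of which passed.

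Of the 3 negative regulators, 2 fell, where 11.5% of all genes fell. Ubash3a encodes STS-2, which damps signals at the receptor. It had 8.37, 8.40 and 8.44 with 4EGI-1, against 9.03, 8.92 and 9.05 in controls, and fell by 0.60 ± 0.06 (SE; limma adjusted p = 0.000400). Its span overlaps that of Rsph1 in the RefSeq annotation. Ptpn6, the phosphatase SHP-1 gene, had 9.23, 9.26 and 9.42 with 4EGI-1, against 9.75, 9.56 and 9.61 in controls, and fell by 0.34 ± 0.08 (limma adjusted p = 0.0175). That call was lost without 4EGI-1 replicate 1 (0.0584), 4EGI-1 replicate 2 (0.0557) or control replicate 1 (0.0612). Ptpn22, a phosphatase gene that acts on Lck and ZAP70, was at 0.12 and did not pass (adjusted p = 0.240). The genes that fell included activating and inhibitory members of the pathway.

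Of the 3 recombination genes 1 rose and the others did not pass, where 11.5% of all genes rose. Rag1, the catalytic subunit gene of the recombinase, had 12.30, 12.26 and 12.31 with 4EGI-1, against 11.85, 11.92 and 11.89 in controls, and rose by 0.40 ± 0.06 (SE; limma adjusted p = 0.00170). Its neighbour and cofactor gene Rag2, whose span overlaps Iftap, had 10.12, 10.07 and 10.13 with 4EGI-1, against 10.00, 9.96 and 10.03 in controls. The groups did not overlap, but the difference of 0.11 did not pass (adjusted p = 0.248). The log2 ratio of Rag1 to Rag2 was 2.18, 2.18 and 2.18 with 4EGI-1, against 1.84, 1.96 and 1.86 in controls (exact permutation p = 0.1, adjusted 0.125). Dntt, which encodes the terminal transferase that adds bases at the joins, was at -0.12 and did not pass (adjusted p = 0.247), though every 4EGI-1 array lay below every control array.

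**Figure D5:**
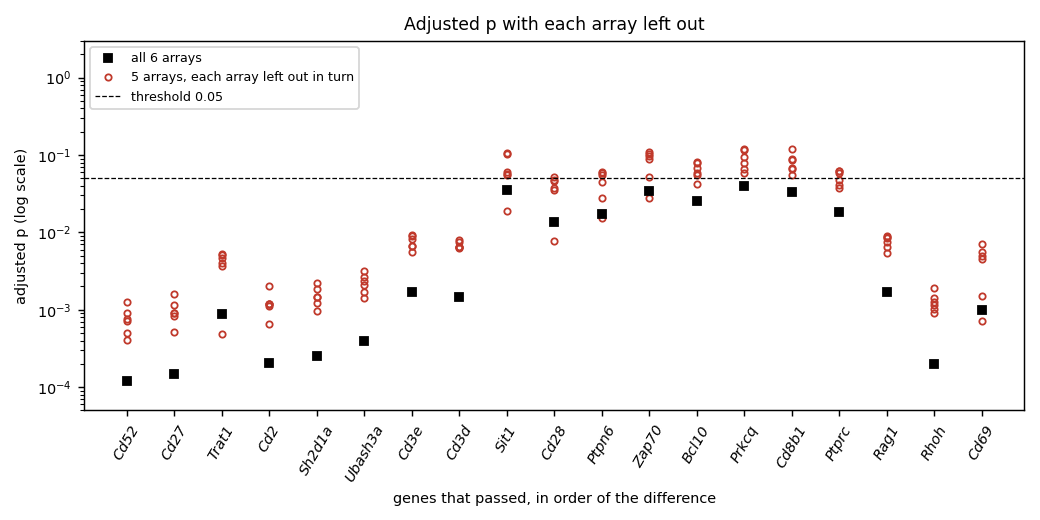
Limma adjusted p (log scale, y axis) of the 19 genes that passed, with all 6 arrays (black squares) and with each array left out in turn (open red circles); the dashed line is the threshold of 0.05. Circles cross the line for Sit1, Cd28, Ptpn6, Zap70, Bcl10, Prkcq, Cd8b1 and Ptprc, and stay under it for the other 11 genes.

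Across the 49 genes the difference was only weakly related to the signal (Pearson r = 0.08, Spearman coefficient 0.06) and to the log2 genomic span of the gene (Pearson r = 0.22, Spearman coefficient 0.21). Over all genes the values for the span were 0.10 and 0.10. The genomic span, which includes introns, had a median of 14.7 kb in the 15 genes that fell, 23.6 kb in the 4 that rose and 30.8 kb in the 30 that did not pass. It reached from 1.54 to 129 kb among the genes that fell. These are descriptions over genes read on the same 6 arrays.

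Other genes of the pathway, taken from lists outside the 50, were lower more often than higher. These lists too were chosen with earlier results of these data known, so they are no independent support. Of 42 other receptor signalling genes 15 fell (35.7%), 6 rose (14.3%) and 21 did not pass, with a median of -0.12. Of all genes 11.5% fell and 11.5% rose. Rasgrp1, the exchange factor that activates Ras in T cells, had 7.48, 7.41 and 7.26 with 4EGI-1, against 8.28, 8.31 and 8.21 in controls, a fall of 0.89 ± 0.07 (SE; limma adjusted p = 0.000139). The calcineurin catalytic subunit gene Ppp3ca fell by 0.80 ± 0.07 and Csk, the kinase that holds Lck inactive, by 0.57 ± 0.07. The inositol trisphosphate receptor genes Itpr2 and Itpr3 rose by 0.87 ± 0.07 and 0.47 ± 0.08, and Cblb, a ubiquitin ligase that limits T-cell activation, by 0.64 ± 0.08.

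Of 46 other lymphocyte surface genes 14 fell (30.4%), 7 rose (15.2%) and 25 did not pass, with a median of -0.12. The shares over all genes were 11.5% lower and 11.5% higher. Icos, a relative of CD28, fell by 0.74 ± 0.07 (SE), the chemokine receptor gene Ccr4 by 0.58 ± 0.07 and the glycoprotein gene Emb by 0.50 ± 0.06. Ctla4, which encodes the inhibitory counterpart of CD28, was higher by 0.85 ± 0.13 (limma adjusted p = 0.00214), the integrin gene Itgae by 0.52 ± 0.08 and Adgre5, an adhesion receptor gene, by 0.40 ± 0.07.

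In the marker lists of other cell types, with 5 to 10 genes each, 0% to 20% of the genes passed, against 22.9% of all genes. The lists are too short to tell these shares apart. Among 9 B-cell genes 1 rose, Blnk, by 0.99 ± 0.11 (SE), and 0 fell; among 10 myeloid genes Adgre1 and Cd68 rose, by 0.64 ± 0.08 and 0.31 ± 0.07, and 0 fell. Of 8 NK-cell genes 1 fell, Gzma, by 0.67 ± 0.08. None of 5 erythroid and 9 stromal or endothelial genes passed in limma, where 2 and 0 of them had an unadjusted p under 0.05. The summed log2 signal of the B-cell list was 52.2 to 53.0 with 4EGI-1 and 51.9 to 52.8 in controls, that of the myeloid list 59.1 to 59.2 with 4EGI-1 and 58.1 to 58.9 in controls, and that of the NK-cell list 46.8 to 47.8 with 4EGI-1 and 49.0 to 49.1 in controls. The NK-cell sums were lower and the myeloid sums higher with 4EGI-1 on every array. The myeloid list itself was split, with 5 genes above 0 and 5 below and a median difference of -0.01. Of the 8 NK-cell genes 7 were below 0, with a median of -0.19. The erythroid sums were 32.9 to 33.7 with 4EGI-1 and 32.8 to 33.6 in controls, and the stromal and endothelial sums 58.9 to 59.7 with 4EGI-1 and 59.6 to 60.2 in controls. An array value has no true zero, and the part of other cells in the results was not tested.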

How the data were processed

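The 6 samples are 3 with 4EGI-1 and 3 controls, grouped by their titles. The deposited table gives a log2 signal for every probe set on every array, produced by RMA according to the submitters' processing notes. Its version and settings were not given in the sources used here. Because RMA equalises arrays, a value is relative to its array. Of 34760 probe sets, 22961 are in the platform annotation: 21640 with 1 gene symbol, 1321 with several (used for no gene). The other 11799 stay unnamed. Symbols were updated by Entrez identifier for 21553 probe sets through a RefSeq table (GRCm38.p6), used also for which genes neighbour or overlap and for spans. The probe set of highest mean stands for each symbol (19937 genes). The fit used limma 3.58.1 (lmFit, eBayes) under R 4.3.3, two-sided, with no filter, and adjusted over all genes. SE is the moderated standard error, with 8.15 degrees of freedom. The fit was tested on simulated data. Precision is limited by the number of arrays. No 2 arrays were alike enough to be 1 sample (smallest median difference within a group 0.0927).

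The members, classes and lists were chosen with earlier results of these data known. All members are accounted for, and from the 2 lists of other genes up to 3 genes per direction with the smallest adjusted p are named. Partner log2 ratios were tested by exact permutation over arrays. Start regions come from the RefSeq promoter table, which held 35 of the 49 measured members. Alternatives were a replicate block, filters on low signal, the mean of probe sets, every probe set, quantile normalization, centring, a trended robust prior, array weights, a threshold of 0.01, other class boundaries and leaving out each sample.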

Additional observations from a re-analysis of the deposited data

How the results depend on the processing

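No member's call changed direction in any alternative run. Of the 19 members that passed, 11 passed in every alternative that tested them (Cd52, Cd27, Cd2, Cd3e, Cd3d, Trat1, Sh2d1a, Ubash3a, Rhoh, Rag1 and Cd69, which the filter at the table's median left out) and 8 lost the call in at least 1; 10 others passed in at least 1. Leaving out 1 array gave 8 to 12 members lower, 1 to 2 surface genes higher and 3 to 5 signalling genes lower. The fits have fewer arrays, and 3546 to 3892 of all genes passed in them, against 4573 with all arrays. Medians were -0.17 to -0.11 for surface and -0.19 to -0.11 for signalling genes. With only genes whose mean reached the table's median, 11 surface genes fell, 2 signalling genes rose and the surface median was -0.17. In that fit 5143 of 11059 genes passed. The trended robust prior gave 12 surface genes lower and 2 signalling genes higher, while calls over all genes also went up, to 5407. At an adjusted p under 0.01, 2736 of all genes passed, with 8 members and 3 signalling genes lower and 1 surface gene higher. Counting the CD3 chains, Cd247 and Ptprc as signalling left 1 surface gene higher and 2 signalling genes higher. With transmembrane adaptors as surface genes the medians were -0.154 for surface and -0.089 for signalling genes. Causes were not tested beyond these constructions.

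Replicate numbers are shared between the groups, but deviations of same-numbered arrays correlated at only 0.06, 0.11 and -0.02, and replicate 3 of 4EGI-1 did not correlate best with its own number. With the replicate number as a block, 4071 of all genes and 16 members passed (12 lower), without Bcl10, Cd8b1 and Prkcq (adjusted p = 0.0586, 0.0641 and 0.0533). Array number limits what small differences can show.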
